A study of Homo sapiens with 4 samples.

Results

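The actins, the filamins and a set of proteins that bind or crosslink actin filaments were followed as 9 named genes (ACTB, ACTG1, ACTA2, ACTN1, ACTN4, FLNA, FLNC, LIMA1 and VASP) of 27694 in the deposited table, taken by gene name. LN229 is a long-established line of human glioblastoma cells. The compound UM-164 inhibits the kinases c-Src and p38. The experiment compared 2 RNA-seq libraries of LN229 cells given vehicle (DMSO) with 2 libraries of LN229 cells given 100 nM UM-164, all collected at 24 h, to find genes whose RNA level differs under the inhibitor. Both groups were unmodified LN229 cells grown in medium with serum, so the experiment is limited to this line, this dose and this time. The sources do not say whether the replicate libraries were grown as separate cultures, so p-values measure only a spread among libraries that may be technical. Levels are given as FPKM, fragments divided by transcript length and by the number mapped in that library. In bulk RNA, fewer cells of a type and less RNA per cell cannot be told apart.

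Actin monomers polymerise into filaments that give a cell its shape and, with myosin, its pulling force. Filamins join filaments into orthogonal networks and link them to membrane receptors, alpha-actinins tie antiparallel filaments into bundles such as stress fibres, and members of the Ena/VASP family help filaments to elongate at adhesions and at the leading edge. Actin genes are classical targets of serum response factor (SRF), which binds a DNA element called the CArG box and whose cofactors of the MRTF family bind free actin monomers. Tension in the actin network also regulates YAP, the co-activator of TEAD transcription factors. Glioma cells rely on these structures for migration.

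The genes lie on 7 chromosomes of GRCh38 (GENCODE v29 coordinates). ACTB is on chromosome 7 from 5527147 to 5563784, ACTG1 on chromosome 17 from 81509971 to 81523847, and ACTA2 on chromosome 10 from 88935074 to 88991339. ACTN1 is on chromosome 14 from 68874143 to 68979440, ACTN4 on chromosome 19 from 38647649 to 38731583, and FLNA on chromosome X from 154348524 to 154374638. FLNC is on chromosome 7 from 128830377 to 128859274, LIMA1 on chromosome 12 from 50175788 to 50283546, and VASP on chromosome 19 from 45506579 to 45526983. The coding sequences of ACTB and ACTG1 are both 1128 bases long and identical at 91.2% of positions, and 0.534% of the 50-base windows of the longest ACTB coding transcript occur unchanged in that of ACTG1. ACTN1 and ACTN4 are identical at 82.1% of aligned coding bases, with 1.23% of windows shared, and FLNA and FLNC at 74.9%. Part of ACTA2 (12.8% of its exon bases) lies across from exons of FAS on the other strand, and the sources do not state whether the counting used strand. The FPKM of FAS was 0.774 to 0.904 in the 4 libraries. In the pathway annotation of the deposited table, 7 of the 9 genes belong to KEGG focal adhesion, which holds 1.09% of the 11516 genes tested. FLNC is 1 of the 7 but was not among the genes tested. The 2 outside focal adhesion are ACTA2 and LIMA1. Tight junction held 5 of the 9 (0.851% of genes tested) and Hippo signaling 2 (0.851%). Regulation of actin held 4 (1.16%) and adherens junction 4 (0.530%).

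Promoter windows from 250 bases before to 50 bases after the transcription start were taken from RefSeq (GRCh38.p14), where 8 of the 9 genes matched, with 14 windows, ACTB being the other gene. Both strands were searched for the CArG box in its strict form and for the TEAD motif GGAATG, which reads CATTCC on the other strand. A CArG box was found in 3 of the 14 windows, against 1.29% of all 35116 windows, and a TEAD motif in 4 of 14, against 14.03%. The CArG boxes belong to ACTG1, FLNA and the third window of ACTN1, and no CArG box overlaps a TEAD motif. The 250 bases upstream of the starts are shown for these 3 genes because 2 of them are the genes of the set that passed the test below. ACTG1 is read on the minus strand of chr17:81512800-81513049, FLNA on the minus strand of chrX:154374635-154374884 and ACTN1 on the minus strand of chr14:68977567-68977816. Capitals mark the CArG box.
ACTG1: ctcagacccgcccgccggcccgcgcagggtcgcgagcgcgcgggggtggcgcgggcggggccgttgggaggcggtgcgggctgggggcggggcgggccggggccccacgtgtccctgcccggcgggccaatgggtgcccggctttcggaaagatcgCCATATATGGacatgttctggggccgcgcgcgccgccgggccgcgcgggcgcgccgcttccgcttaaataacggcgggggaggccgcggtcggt
FLNA: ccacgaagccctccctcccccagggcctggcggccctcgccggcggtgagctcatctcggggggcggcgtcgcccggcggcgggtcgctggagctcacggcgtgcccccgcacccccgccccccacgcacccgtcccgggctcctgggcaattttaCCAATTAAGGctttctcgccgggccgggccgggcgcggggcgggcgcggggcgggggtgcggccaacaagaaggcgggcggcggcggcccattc
ACTN1: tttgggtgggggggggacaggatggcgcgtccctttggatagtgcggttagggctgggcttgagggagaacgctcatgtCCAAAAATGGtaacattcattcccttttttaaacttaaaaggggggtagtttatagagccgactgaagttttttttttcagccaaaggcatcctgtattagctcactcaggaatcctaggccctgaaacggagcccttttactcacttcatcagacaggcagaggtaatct
In ACTG1 and in FLNA the first base of the box lies 94 bases upstream of the start, and in the ACTN1 window it lies 171 bases upstream. A match of letters is not a measured binding site.

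TEAD motifs were found upstream of one start each of ACTA2, ACTN1, FLNC and LIMA1, and none in the windows of the 2 genes that passed the test. They are shown, in capitals, with their surroundings for the 3 genes whose windows hold no CArG box of the strict form. Boxes with a G or C within the A and T core were not searched, so these windows may hold such boxes. ACTA2 is on the minus strand of chr10:88952924-88952983, FLNC on the plus strand of chr7:128830276-128830335 and LIMA1 on the minus strand of chr12:50202174-50202216.
ACTA2: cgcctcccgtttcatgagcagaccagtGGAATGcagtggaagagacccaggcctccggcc
FLNC: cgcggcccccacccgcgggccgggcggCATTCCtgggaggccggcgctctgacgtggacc
LIMA1: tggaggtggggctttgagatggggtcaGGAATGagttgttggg
The ACTA2 and LIMA1 windows are the second of 2 for each gene, and the ACTN1 motif lies in the ACTN1 sequence printed above.

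LN229 cells carried the cytoplasmic actins among their most abundant RNAs per transcript length. In vehicle libraries ACTB ranked 28 and ACTG1 ranked 35 by mean FPKM among the 11516 genes tested, those whose FPKM averaged 1 or more over the 4 libraries. FLNA ranked 235, ACTN4 463, ACTN1 942, VASP 1881, LIMA1 3814 and ACTA2 4929 in the same libraries. ACTB and ACTG1 overlapped in level between vehicle libraries, and LIMA1 and ACTA2 did so in UM-164 libraries. FLNC, the filamin of striated muscle, did not pass the filter. Of the labelled cell type, the intermediate filament genes VIM and NES and the transcription factor SOX2 were present, at 494 to 623, 119 to 133 and 24.39 to 29.04 FPKM in vehicle libraries, while the astrocyte filament gene GFAP was at most 0.120 FPKM in any library. None of VIM, NES and SOX2 passed the test, at log2 fold changes of -0.53, -0.44 and -0.21. The calcium-binding protein gene S100B had 328 and 305 FPKM in vehicle and 536 and 559 FPKM in UM-164 libraries and rose (log2 fold change 0.79, adjusted p = 0.0326 from limma, as described next). The transcription factor gene OLIG2 had 3.51 and 2.24 FPKM in vehicle and 6.09 and 5.89 FPKM in UM-164 libraries, with a log2 fold change of 0.97 that did not pass. The 6 markers of this list summed to between 964 and 1098 FPKM in vehicle and between 1005 and 1104 FPKM in UM-164 libraries. VIM had 346 and 426 FPKM in UM-164 libraries, so in these sums its lower values offset the higher values of S100B. The part of the markers in the results below was not tested.

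The RNA of cytoplasmic gamma-actin (ACTG1) and of filamin A (FLNA) fell under UM-164, to 0.581 and 0.652 of the vehicle means. Log2(FPKM + 0.5) was compared with limma over all 11516 genes, with p-values adjusted by the Benjamini-Hochberg method, and the log2 fold changes below are on that scale, UM-164 against vehicle. ACTG1 and FLNA fell at an adjusted p under 0.05, so 2 of the 8 genes tested were lower and none higher, where 0.86% of all genes tested were lower and 0.452% higher. All 8 fold changes were below 0, as were 48.1% of those of all genes. The median was -0.55 for the 8 genes and 0.01 for all genes. For 7 of the 8, each UM-164 library was lower than each vehicle library, which held for 25.5% of all genes. At an unadjusted p under 0.05, 5 of the 8 were lower, against 10.6% of all genes. All 8 averaged 5 FPKM or more. In a limma fit of the 5896 genes at that level, 158 were lower at an adjusted p under 0.05, ACTG1 and FLNA among them. At an unadjusted p under 0.05, 896 of the 5896 were lower. Both are larger shares than over all 11516 genes. The 8 genes were chosen with earlier results of these data known, so the counts beside all genes are a description only.

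**Figure D1:**
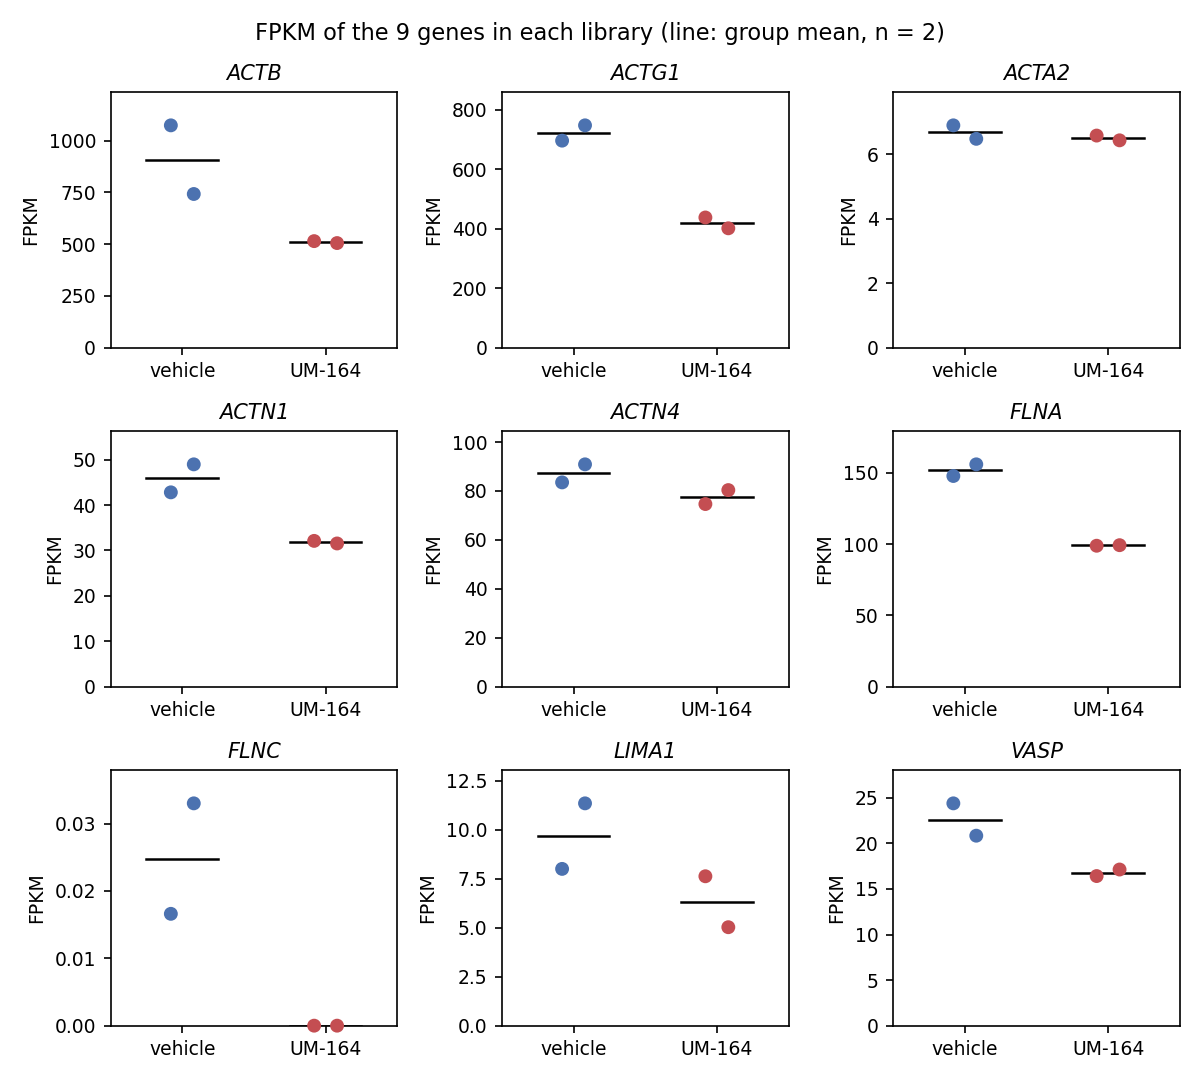
FPKM of each of the 9 genes (linear axes from 0) in the 2 vehicle libraries (blue) and the 2 UM-164 libraries (red); black lines are group means, n = 2. The groups are apart in every panel but that of ACTA2, the vehicle libraries of ACTB are far apart, and FLNC is at most 0.033 FPKM.

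ACTG1 (ENSG00000184009), cytoplasmic gamma-actin, had 696 and 747 FPKM under vehicle and 437 and 401 FPKM under UM-164. The lowest vehicle value was 258 FPKM above the highest UM-164 value, and libraries of a group differed by at most 1.09 times. The means were 721 ± 36.3 and 419 ± 25.7 FPKM (SD, n = 2 each), and the log2 fold change was -0.78 (standard error 0.09, 95% interval -1.02 to -0.55, adjusted p = 0.0359 from limma). The fall passed the test. Whether it is linked to the CArG box in the upstream sequence shown above was not tested.

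ACTB (ENSG00000075624), cytoplasmic beta-actin, had 1074 and 743 FPKM under vehicle and 515 and 506 FPKM under UM-164. The groups did not overlap, but the vehicle libraries differed from each other by 1.45 times and the UM-164 libraries by 1.02 times. The means were 909 ± 235 and 510.2 ± 6.59 FPKM (SD, n = 2 each). Its log2 fold change of -0.81 was near that of ACTG1, with a larger standard error (0.18 against 0.09), and it did not pass (95% interval -1.28 to -0.34, adjusted p = 0.109 from limma). The value rested on which vehicle library was used, at -0.54 without vehicle replicate 1 and -1.07 without vehicle replicate 2, and the call was not reached in either fit (adjusted p = 0.133 and 0.0951 from limma).

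Reads from the few stretches that ACTB and ACTG1 share could be divided between them in different ways, so the cytoplasmic actins were also added together. Each FPKM is divided by the transcript length of its own gene, so the sum is not wholly free of this. ACTB and ACTG1 took 0.605% and 0.529% of the summed FPKM of the vehicle libraries and 0.301% and 0.284% of that of the UM-164 libraries. Both UM-164 libraries were below both vehicle libraries, at means of 0.567% ± 0.0535 and 0.293% ± 0.0120 (SD, n = 2 each). By a two-sided exact permutation test the difference had p = 0.33, the smallest value that 2 libraries against 2 can give. Within a library, the log2 ratio of ACTG1 to ACTB was -0.63 and 0.01 in vehicle and -0.23 and -0.33 in UM-164 libraries. The UM-164 ratios lay between those of the vehicle libraries, a mean difference of 0.025 (two-sided exact permutation p = 1.0, adjusted p = 1.0 over 3 ratios). Of 12 actin pseudogenes listed, only the ACTB copy ACTBP2 averaged 1 FPKM or more, with 1.99 and 1.61 FPKM in vehicle and 1.37 and 0.597 FPKM in UM-164 libraries. All 12 together held 2.48 to 3.01 FPKM in a library, far below either actin.

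**Figure D2:**
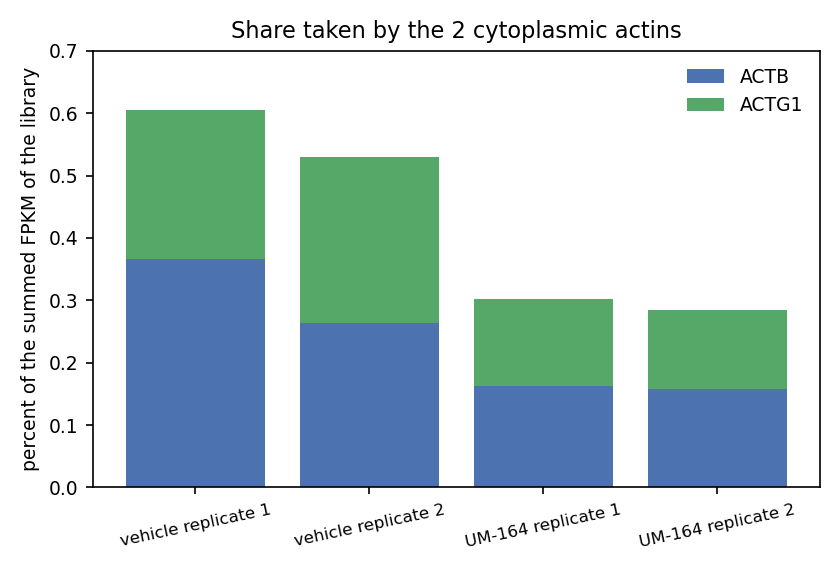
Stacked bars give the percent of the summed FPKM of each library taken by ACTB (blue) and ACTG1 (green), for the 2 vehicle and the 2 UM-164 libraries. The total is 0.605% and 0.529% in vehicle and 0.301% and 0.284% in UM-164 libraries.

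ACTA2 (ENSG00000107796), the alpha-actin of smooth muscle and myofibroblasts, was close to level between groups. It had 6.89 and 6.47 FPKM in vehicle and 6.57 and 6.43 FPKM in UM-164 libraries. The groups overlapped, and libraries of a group differed by at most 1.06 times. Its log2 fold change was -0.04 (standard error 0.11, adjusted p = 0.878 from limma), with a 95% interval from -0.31 to 0.24 that does not reach the fold change of ACTG1. The difference between the fold changes of ACTA2 and ACTG1 was not tested. Markers of muscle cells were sparse: of 5 listed, the calponin gene CNN1 averaged 1 FPKM or more, and MYH11, DES and MYL9 were at most 0.0503 FPKM in any library. The other listed marker, ACTA1, had no entry under that name in the deposited table. Without vehicle replicate 1 the log2 fold change of ACTA2 was 0.01.

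FLNA (ENSG00000196924), filamin A, the widely expressed filamin that crosslinks actin and binds integrins, had 148 and 156 FPKM in vehicle and 98.8 and 99.2 FPKM in UM-164 libraries. The gap between the groups, 48.5 FPKM, was larger than the difference within either group. The means were 152 ± 5.77 and 99.0 ± 0.278 FPKM (SD, n = 2 each), and the log2 fold change was -0.61 (standard error 0.08, 95% interval -0.81 to -0.41, adjusted p = 0.0451 from limma). FLNA passed narrowly, and its standard error was the smallest of the 8 genes.

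FLNC (ENSG00000128591) was listed at 0.0166 and 0.0330 FPKM in the vehicle libraries and at 0 in both UM-164 libraries. These values are under the filter, so FLNC was not tested and no fold is given. FLNA was the filamin of the set that passed the filter. The log2 ratio of FLNA to FLNC within a library, 8.16 and 8.20 in vehicle and 7.63 and 7.64 in UM-164 libraries, is set by the added 0.5 and follows FLNA alone (two-sided exact permutation p = 0.33, adjusted p = 0.50 over 3 ratios).

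The alpha-actinins are a pair of widely expressed paralogs. ACTN1 (ENSG00000072110), abundant in stress fibres and focal adhesions, had 42.8 and 49.0 FPKM in vehicle and 32.1 and 31.5 FPKM in UM-164 libraries. The groups did not overlap, at means of 45.9 ± 4.36 and 31.8 ± 0.404 FPKM (SD, n = 2 each). The log2 fold change of ACTN1 was -0.52 (standard error 0.10, 95% interval -0.77 to -0.26) and did not pass after adjustment (adjusted p = 0.0840 from limma). ACTN4 (ENSG00000130402), which is found in motile structures and also in the nucleus, had 83.5 and 90.9 FPKM in vehicle and 74.7 and 80.4 FPKM in UM-164 libraries. The groups of ACTN4 were 3.15 FPKM apart, less than the difference within either group. Its log2 fold change was -0.17 (standard error 0.09, 95% interval -0.40 to 0.06, adjusted p = 0.370 from limma).

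ACTN1 stood at a lower fraction of ACTN4 in UM-164 libraries, and this ratio does not depend on how libraries were scaled. The FPKM of ACTN1 divided by that of ACTN4 was 0.513 and 0.539 in vehicle and 0.430 and 0.392 in UM-164 libraries. Both UM-164 ratios were below both vehicle ratios, and the log2 ratio of FPKM + 0.5 was lower by a difference of -0.35. With 2 libraries a group the two-sided exact permutation test cannot go below 0.33, which is the p of this ratio (adjusted p = 0.50 over 3 ratios).

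VASP (ENSG00000125753), a substrate of cyclic nucleotide-dependent kinases that shields growing filament ends from capping, had 24.4 and 20.8 FPKM in vehicle and 16.4 and 17.1 FPKM in UM-164 libraries. The groups were 3.71 FPKM apart, about the difference between the vehicle libraries. Its log2 fold change was -0.42 (standard error 0.11, 95% interval -0.70 to -0.13, adjusted p = 0.147 from limma) and did not pass. LIMA1 (ENSG00000050405), also called EPLIN, which crosslinks and stabilises filaments, had 7.9996 and 11.3 FPKM in vehicle and 7.62 and 5.02 FPKM in UM-164 libraries. The groups were only 0.376 FPKM apart, and libraries differed by 1.42 times within vehicle and 1.52 times within UM-164. LIMA1 had a log2 fold change of -0.58 with the largest standard error of the 8 genes (0.25, 95% interval -1.23 to 0.06, adjusted p = 0.281 from limma). Leaving out one library moved it between -0.86 (without UM-164 replicate 1) and -0.31 (without UM-164 replicate 2).

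**Figure D3:**
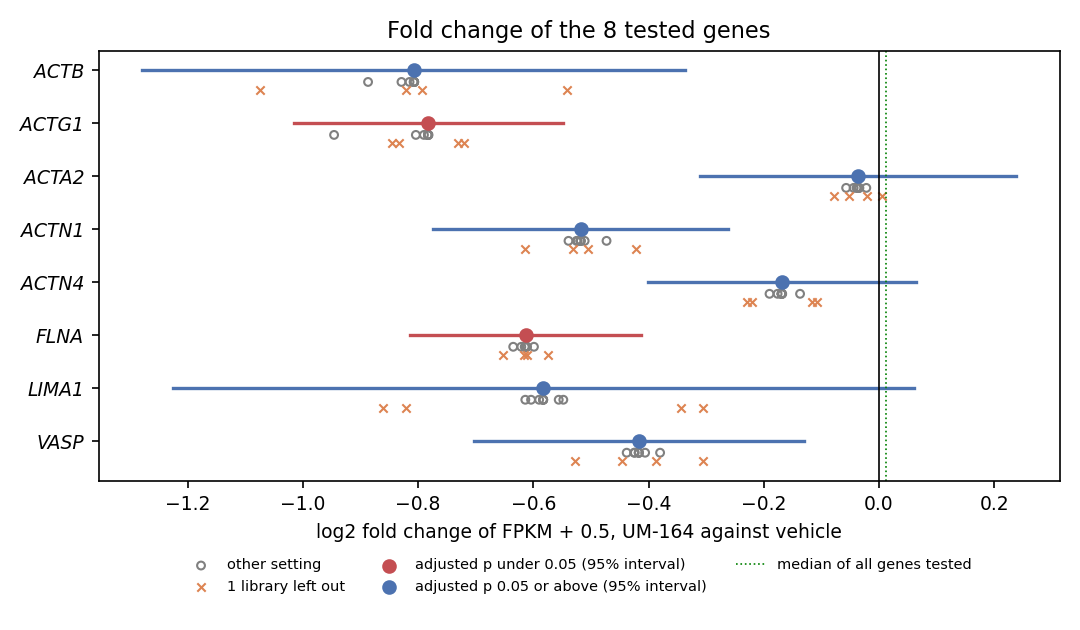
Log2 fold change of FPKM + 0.5, UM-164 against vehicle, for the 8 tested genes, with 95% intervals from limma (n = 2 libraries a group; red, adjusted p under 0.05), under other settings (grey circles) and with 1 library left out (orange crosses). ACTG1 at -0.78 and FLNA at -0.61 are red, ACTA2 lies at -0.04, and the crosses of ACTB run from -1.07 to -0.54.

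The calls of ACTG1 and FLNA were made only with both libraries of each group. With any 1 library left out neither passed, at log2 fold changes of -0.85 to -0.72 for ACTG1. FLNA had -0.65 to -0.57 in the same fits. Such a fit leaves a lone library in a group, so a missed call there can reflect the fit as well as the gene. ACTG1 also missed with no variance trend (0.0896) and with no filter (0.198), and FLNA with these (0.105 and 0.188), with median-ratio scaling (0.0556) and with quantile normalization (0.0533).

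Genes without a protein-coding transcript took 9.94% and 10.3% of the summed FPKM in vehicle and 16.6% and 18.3% in UM-164 libraries. When the genes with a protein-coding transcript were rescaled to 1 sum in each library, the values were slightly more negative. The log2 fold change was -0.80 for ACTG1 (adjusted p = 0.0133) and -0.64 for FLNA (adjusted p = 0.0225, both from limma), and ACTB had -0.83 and did not pass (adjusted p = 0.0529). Among protein-coding genes the cytoplasmic actins took 0.631% ± 0.0611 in vehicle and 0.355% ± 0.00912 in UM-164 libraries (SD, n = 2 each). No scaling moved the median of all genes by over 0.1 on the log2 scale. The vehicle libraries were less alike than the UM-164 libraries, with a median absolute log2 difference over the genes tested of 0.18 against 0.12.

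Genes with profiles most like those of the main members were sought among 2073 other tested genes averaging 20 FPKM or more, by the Euclidean distance of centred log2(FPKM + 0.5) over the 4 libraries. The 3 nearest to ACTG1 were PMEPA1, BNIP3 and CNN3, at distances of 0.08, 0.09 and 0.09. CNN3 encodes an acidic calponin that binds actin, and it had 77.1 and 84.5 FPKM in vehicle and 45.6 and 44.7 FPKM in UM-164 libraries. Nearest to FLNA were the mitotic motor gene KIFC1, the scaffold gene IQGAP3 and the mitotic kinase gene AURKA, at distances of 0.05, 0.06 and 0.06. ACTB was nearest to SLC25A10, DCTPP1 and FTSJ1, at 0.14, 0.14 and 0.19, genes that were likewise highest in vehicle replicate 1. With 4 libraries such likeness is a description only.

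Other genes of the actin machinery were called in both directions. Of 83 other actin network genes in 7 lists, 71 were tested, and 1 was lower and 3 were higher at an adjusted p under 0.05 from limma, next to the 0.86% and 0.452% of all genes. Fold changes under 0 numbered 47 of 71, or 66.2% against 48.1% of all genes, and the median over the 71 was -0.14. For 30 genes (42.3%, against 25.5% of all genes) each UM-164 library was lower than each vehicle library. These lists too were chosen with earlier results of these data known. With vehicle replicate 1 or vehicle replicate 2 left out, 0 were lower and 0 higher, and with either UM-164 library left out, 0 were lower and 2 higher.

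Closest in kind were the other actins. ACTG2, enteric smooth muscle gamma-actin, had 3.03 and 3.35 FPKM in vehicle and 1.28 and 1.69 FPKM in UM-164 libraries, and its log2 fold change of -0.90 did not pass (adjusted p = 0.0820 from limma). ACTN2 and ACTN3, the alpha-actinins of striated muscle, had at most 0.319 FPKM in any library and were not tested. ACTA1 and ACTC1, the actins of skeletal and cardiac muscle, were on the list but had no entry under these names in the deposited table.

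Among 17 tested bundlers and crosslinkers, 2 rose and none fell, with a median of -0.01. LASP1, a LIM and SH3 protein of adhesions, rose from 18.1 and 19.998 FPKM to 49.4 and 52.5 FPKM (log2 fold change 1.396, adjusted p = 0.0146 from limma). MARCKSL1, a membrane-linked actin-binding relative of MARCKS, rose from 249.7 and 230.0 FPKM to 574 and 551 FPKM (log2 fold change 1.23, adjusted p = 0.0146 from limma). Both lay far outside the spread within groups, and in the opposite direction to ACTG1 and FLNA. The log2 fold change was -0.68 for MARCKS itself (adjusted p = 0.0744) and 0.39 for the plastin gene PLS3 (adjusted p = 0.157, both from limma). FSCN1, fascin, the bundler of filopodia, was outside the naming rule and had 180.6 to 185.5 FPKM in the 4 libraries.

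Of 12 tested Ena/VASP and LIM-domain partners, 1 fell and 1 rose, with a median of -0.41. PDLIM1, a PDZ and LIM protein that binds alpha-actinin, fell from 56.8 and 51.7 FPKM to 31.4 and 28.95 FPKM (log2 fold change -0.84, adjusted p = 0.0356 from limma). CSRP1, a LIM protein that binds alpha-actinin and zyxin, rose from 88.6 and 80.9 FPKM to 150.2 and 139.5 FPKM (log2 fold change 0.77, adjusted p = 0.0374 from limma). Neither PDLIM7 nor the focal adhesion gene ZYX, whose protein recruits VASP, passed, at log2 fold changes of -0.62 and -0.42 (adjusted p = 0.0801 and 0.101 from limma).

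No gene of the nucleation and turnover lists passed the test with limma. At an unadjusted p under 0.05, 1226 of all 11516 genes (10.6%) were lower and 1091 higher, and the counts in these lists stand beside that background. At that level, 1 of 9 subunits of the Arp2/3 complex, which starts branched filaments, was lower and 1 higher, with a median of -0.07. The subunits with the smallest p were ARPC5L at -0.35 and ARPC1B at 0.36 (adjusted p = 0.150 and 0.212 from limma), ahead of ACTR3 at -0.17 and ARPC4 at -0.11. Among 11 nucleation-promoting factors and formins 2 were lower and none higher at that unadjusted level, with a median of -0.14, and the formin genes DIAPH3 and DIAPH1, at -0.45 and -0.34, led (adjusted p = 0.209 and 0.229 from limma). FMNL3 had -0.26 and CYFIP1 had -0.14. In the 20 genes for monomer binding, capping and severing 3 were lower and 2 higher at the unadjusted level, with a median of -0.17. The cofilin gene CFL2 had the most negative value, with 6.88 and 8.03 FPKM in vehicle and 3.75 and 3.802 FPKM in UM-164 libraries, and its log2 fold change of -0.89 just missed (adjusted p = 0.0536 from limma). Values for TMSB4X, thymosin beta-4, which holds actin monomers, and for the severing and capping genes GSN and CAPG were -0.40, 0.23 and 0.34 (adjusted p = 0.0918, 0.205 and 0.222 from limma).

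**Figure D4:**
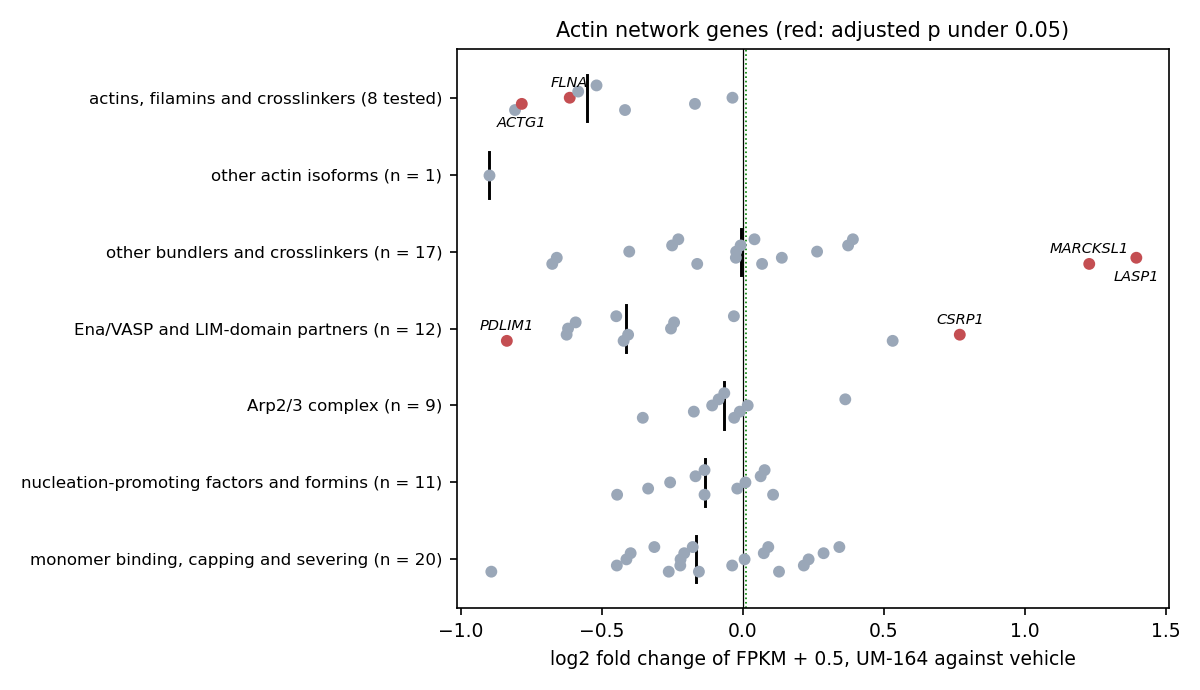
Log2 fold change of FPKM + 0.5, UM-164 against vehicle, of each tested gene (points; red, adjusted p under 0.05 from limma) in the set of 8 and in the lists of other actin network genes that are shown, with the list median (black bar) and the median of all genes (dotted green line, 0.01). LASP1, MARCKSL1 and CSRP1 are the red points above 0, and ACTG1, FLNA and PDLIM1 those below.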

How the data were processed

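RNA of LN229 cells under vehicle or UM-164 was sequenced for the study, with 2 libraries in each group. The authors deposited FPKM per gene and library. Named in the processing notes of the submitters are FastQC, cutadapt 1.9 and the build GRCh38, without their roles, and HISAT2 stands in the series text. Which program gave FPKM is not given in the sources. The same table holds the authors' own fold changes and p-values, which were not used. FPKM keeps no read count, so depth is unknown and no counting interval is given.

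The 11516 genes averaging 1 FPKM or more were kept. Their log2(FPKM + 0.5) was compared between groups by limma 3.58.1 (R 4.3.3), with a variance trend and Benjamini-Hochberg adjustment over all genes kept at 0.05. Adding 0.5 understates changes of low genes. DESeq2, which the methods name, needs counts and was not run. Single values were compared by exact permutation tests. The fit was also run on data simulated from its own variance estimates, with 200 changed genes. Those changes were all larger than the fold change of any member, so the run does not test changes of the size reported here. Alternatives were pseudocounts of 0.1 and 1, no filter, a minimum average of 5 FPKM, 3 scalings, no variance trend, the replicate number as a block, and each library left out.

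The members and gene lists were chosen with earlier results of these data known. Named genes were the 9 members, per list every called gene and up to 4 with the smallest p, the 3 nearest profiles of ACTB, ACTG1 and FLNA, and actin pseudogenes with a mean FPKM of at least 1. FAS, FSCN1, the cell type markers and genes at low level are named outside this rule, and 1 gene that the rule names is not reported here. Python 3.11.15 with pandas 2.3.3, scipy 1.17.1 and biopython 1.88 made the tables. Coding sequences were compared on GENCODE v29, 1 transcript a gene.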

Additional observations from a re-analysis of the deposited data

How the results depend on the processing

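Of the 8 tested members, all had a log2 fold change below 0 under each of the 13 alternatives, except ACTA2, which ran from -0.078 to 0.006 with 1 library left out, being above 0 without vehicle replicate 1. ACTB, ACTN1, ACTN4, LIMA1 and VASP passed under none. ACTG1 passed in 7 of 13 and FLNA in 4. The number of members called lower was 1 with median-ratio scaling and with quantile normalization (ACTG1 in both), 0 with no filter and with no variance trend, and 0 to 0 with 1 library left out, where a lone library was taken to vary like the pair it was set against. The other actin network genes called lower numbered 0 with no filter, 2 at a mean FPKM of at least 5, 3 by quantile normalization, 6 with protein-coding genes rescaled, 0 with no variance trend and 0 to 0 with 1 library left out.

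Over all genes, limma called 1 lower and 3 higher with no filter, 158 lower at a mean FPKM of at least 5, 227 lower and 96 higher with protein-coding genes rescaled, and 28 lower and 22 higher with no variance trend. With 1 library left out the counts ran from 0 to 70 lower and from 4 to 45 higher, the lowest being those without vehicle replicate 1 (0 and 4) and vehicle replicate 2 (0 and 6), where 1292 and 1081 genes were lower at an unadjusted p under 0.05.

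With the replicate number as a block, 1 member was called lower, ACTG1 (adjusted p = 0.0495 from limma), and FLNA had an adjusted p = 0.0630. The block called 107 genes lower and 57 higher over all genes. Nothing in the labels says that a number marks a shared batch, and the deviations of same-numbered libraries had a correlation of -0.06 over 11516 genes, which are not independent.

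The log2 ratio of ACTG1 to ACTB, UM-164 minus vehicle, was 0.025 with all libraries, -0.293 without vehicle replicate 1, -0.024 without UM-164 replicate 1 and up to 0.342 without vehicle replicate 2. The summed share of the cytoplasmic actins was lower in every alternative run. The 95% intervals of ACTN4, ACTA2 and LIMA1 include 0, and with no counts deposited the depth behind each value is unknown.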

Other observations

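Some actin network genes differed more between libraries of a group than between groups, and were picked after their values were seen. CFL1, the main cofilin, had 247 and 132 FPKM in vehicle and 194 and 191 FPKM in UM-164 libraries, so vehicle replicate 1 was high for CFL1 as it was for ACTB. ARPC5, a subunit of the Arp2/3 complex, had 25.1 and 8.28 FPKM in vehicle and 9.05 and 23.7 FPKM in UM-164 libraries. The highest and lowest values of ARPC5 were in the same group.

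The ACTG1 pseudogene ACTG1P20, also picked after its values were seen, stood at 0.188 and 0.184 FPKM in vehicle and 0.612 and 1.11 FPKM in UM-164 libraries, the opposite order to ACTG1. Its level was under the filter and was not tested.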
